A study of Arabidopsis thaliana with 12 samples.

Results

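The block is a run of genes on chromosome 3 of Arabidopsis thaliana on both sides of EDS1 (ENHANCED DISEASE SUSCEPTIBILITY 1, AT3G48090). It was taken by identifier, from AT3G43700 to AT3G50499, among rows of the count table with at least 1 CPM (a count scaled to the same gene total in each library) in 3 or more of 12 libraries. Of 816 identifiers in that range, 423 were under the level minimum and 13 were left out by name, 11 of them above it, EDS1 and its neighbour AT3G48080 among them. This left 382 members, of 17512 genes at the level minimum in the whole table. The members ran from 15601754 to 18718396 on chromosome 3 in TAIR10.1, a span of 3117 kb, with 225 on the side of lower coordinates than EDS1 (17755329 to 17758147) and 157 on the other. The members were chosen by these CPM values and by identifier, and the limits were drawn where genes had already been seen to differ between Col-0 and the other lines. Every value of that comparison below is therefore a description, without a test of its own. Only the comparisons among the other lines did not enter the choice.

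Poly(A) RNA was sequenced from leaves of 4-week-old plants, 4 h after syringe infiltration with Pst AvrRps4 at an OD600 of 0.005. Pst AvrRps4 is a Pseudomonas syringae strain that delivers the effector AvrRps4 into plant cells. The 4 genotypes were the accession Col-0, the mutant eds1-2, w.tEDS1, a line with the wild-type EDS1 gene, and R493A, a line with the EDS1 variant so named. Each genotype had 3 libraries, each from a pool of 4 plants, and every plant was infiltrated, so no value below measures the response to infection. The labels give neither the background of w.tEDS1 and R493A, nor the promoter of their EDS1, nor how many independent lines they stand for.

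EDS1 relays signals from intracellular immune receptors of the TIR class. The eds1-2 allele is known from the accession Landsberg erecta, and it has been brought into Col-0 by repeated crossing. A piece of chromosome that travels with a selected allele in such crosses is called linked, and genes in it may keep the sequence of the donor accession. Accessions of Arabidopsis differ in clusters of receptor kinases, NLR resistance genes and metabolic enzymes, in some cases by the presence or absence of whole genes. The labels do not say which eds1-2 stock was used, and the sequence of the lines in the block was not analysed here. A transcript whose reads match the reference genome poorly and a transcript made in smaller amounts both give a low count, and these cannot be told apart here. Nor can fewer cells of a type and less RNA per cell be told apart in whole leaves.

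The promoters of 6 members at the extremes of the comparison are shown, since these genes were close to on in one set of plants and close to off in the other, or, for the resistance gene RPP13, much lower. The first 4 were high in Col-0, and the last 2 were high in the other lines. Each is the 250 bases before the annotated gene start, read 5′ to 3′ on the strand of the gene from the RefSeq TAIR10.1 genome. Capitals mark the W-box core TTGAC or its reverse GTCAA, the letters bound by WRKY transcription factors, and the TATA box TATAAA or its reverse TTTATA.
AT3G43740 (chr3:15643759-15644008, plus strand): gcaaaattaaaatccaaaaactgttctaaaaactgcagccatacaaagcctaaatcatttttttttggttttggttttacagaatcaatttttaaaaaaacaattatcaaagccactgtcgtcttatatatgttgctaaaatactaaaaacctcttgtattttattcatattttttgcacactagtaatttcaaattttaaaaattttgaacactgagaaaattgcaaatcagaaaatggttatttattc
AT3G44430 (chr3:16068007-16068256, plus strand): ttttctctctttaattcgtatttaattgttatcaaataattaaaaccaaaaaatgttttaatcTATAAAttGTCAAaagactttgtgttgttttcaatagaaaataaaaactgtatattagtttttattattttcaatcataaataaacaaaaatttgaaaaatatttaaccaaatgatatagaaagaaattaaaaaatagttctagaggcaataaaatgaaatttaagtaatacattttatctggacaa
AT3G46370 (chr3:17051270-17051519, plus strand): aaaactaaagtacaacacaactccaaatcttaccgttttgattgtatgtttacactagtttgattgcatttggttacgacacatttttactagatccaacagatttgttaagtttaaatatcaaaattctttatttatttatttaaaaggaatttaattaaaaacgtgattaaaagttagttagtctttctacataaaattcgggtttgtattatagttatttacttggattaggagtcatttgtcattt
RPP13 (chr3:17133463-17133712, minus strand): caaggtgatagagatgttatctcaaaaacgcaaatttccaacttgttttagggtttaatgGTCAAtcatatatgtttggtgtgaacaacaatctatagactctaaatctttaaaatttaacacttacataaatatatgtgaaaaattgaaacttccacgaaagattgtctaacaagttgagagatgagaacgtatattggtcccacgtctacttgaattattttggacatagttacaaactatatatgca
AT3G44070 (chr3:15829824-15830073, minus strand): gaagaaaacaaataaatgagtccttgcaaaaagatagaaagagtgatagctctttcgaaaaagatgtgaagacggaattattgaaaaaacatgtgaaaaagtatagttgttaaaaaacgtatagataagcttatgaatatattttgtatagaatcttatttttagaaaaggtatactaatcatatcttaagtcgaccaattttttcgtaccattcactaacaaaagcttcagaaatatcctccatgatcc
FAR8 (chr3:16150873-16151122, plus strand): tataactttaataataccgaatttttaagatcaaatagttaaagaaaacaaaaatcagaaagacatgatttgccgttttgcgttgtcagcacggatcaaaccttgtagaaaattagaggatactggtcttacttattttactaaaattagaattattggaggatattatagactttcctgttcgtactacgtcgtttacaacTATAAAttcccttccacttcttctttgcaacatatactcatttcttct
These are reference sequences, and those of the other lines were not analysed here. A W-box core lay in the windows of AT3G44430 and RPP13, and a TATA box in those of AT3G44430 and FAR8, while the other 3 windows held neither. Over the promoters of 18647 tested genes with an annotated start, 45.2% held a W-box core, against 49.2% of the 382 members. The TATA box was found in 45.7% and 46.1%, and the G-box CACGTG, the same on both strands, in 7.58% and 10.5%.

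The libraries held 19273912 to 24572145 gene counts. Col-0 was the most variable genotype, with a median SD over genes of 0.307 on the log2 scale against 0.182 to 0.221 in the other 3. Col-0 replicates 1 and 2 were sequenced in a lane that held no other library, so their lane and genotype cannot be told apart, and Col-0 replicate 3 shared a lane, numbered 7, with libraries of the other genotypes. EDS1 itself was at 32.4, 71.9 and 23.1 CPM in the Col-0 libraries, 3.81, 4.09 and 3.93 in eds1-2, 124, 196 and 111 in w.tEDS1 and 31.1, 23.5 and 19.3 in R493A. The 4 leaf markers summed to 24300 to 34100 CPM in Col-0, 31900 to 34500 in R493A, 37600 to 38900 in w.tEDS1 and 36300 to 40000 in eds1-2, so Col-0 lay under w.tEDS1 and eds1-2, and the part of this in the results was not tested. The 4 root markers summed to at most 0.084 CPM, with 2 of them at 0 throughout, and the 4 flower markers to at most 1.25 CPM.

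Set against the mean of the other 3 lines, Col-0 differed at 120 of 382 members (31.4%) by the edgeR quasi-likelihood test at an adjusted p under 0.05, 91 lower and 29 higher in the lines. Over all 18770 genes tested, 10.4% were called, 6.85% lower and 3.55% higher, and the members were chosen with this contrast in view. The 91 lower members had a median log2 change of −1.41 and ranged from −11.64 to −0.32. The 29 higher members had a median of 1.17 and ranged from 0.39 to 8.84. The 3 Col-0 libraries lay wholly above the other 9 at 86 members and wholly below at 27, together 113 members, against 4.3%, 3.96% and 8.26% of all genes tested. The 63 members that were called, did not overlap and differed by at least 1 on the log2 scale, here termed large, were 50 lower and 13 higher, against 1.55% of all genes. Among the 382 members, 13 reached the level minimum through Col-0 alone, so their 3 Col-0 libraries had to lie above the other 9 in unscaled CPM. Another 12 reached it through the other lines alone, which favoured a higher level there without forcing it in all 9 libraries. AT3G48480, one of the 12, was at 0.146 to 0.447 CPM in Col-0 and 0.275 in R493A replicate 2, and was not called.

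**Figure D1:**
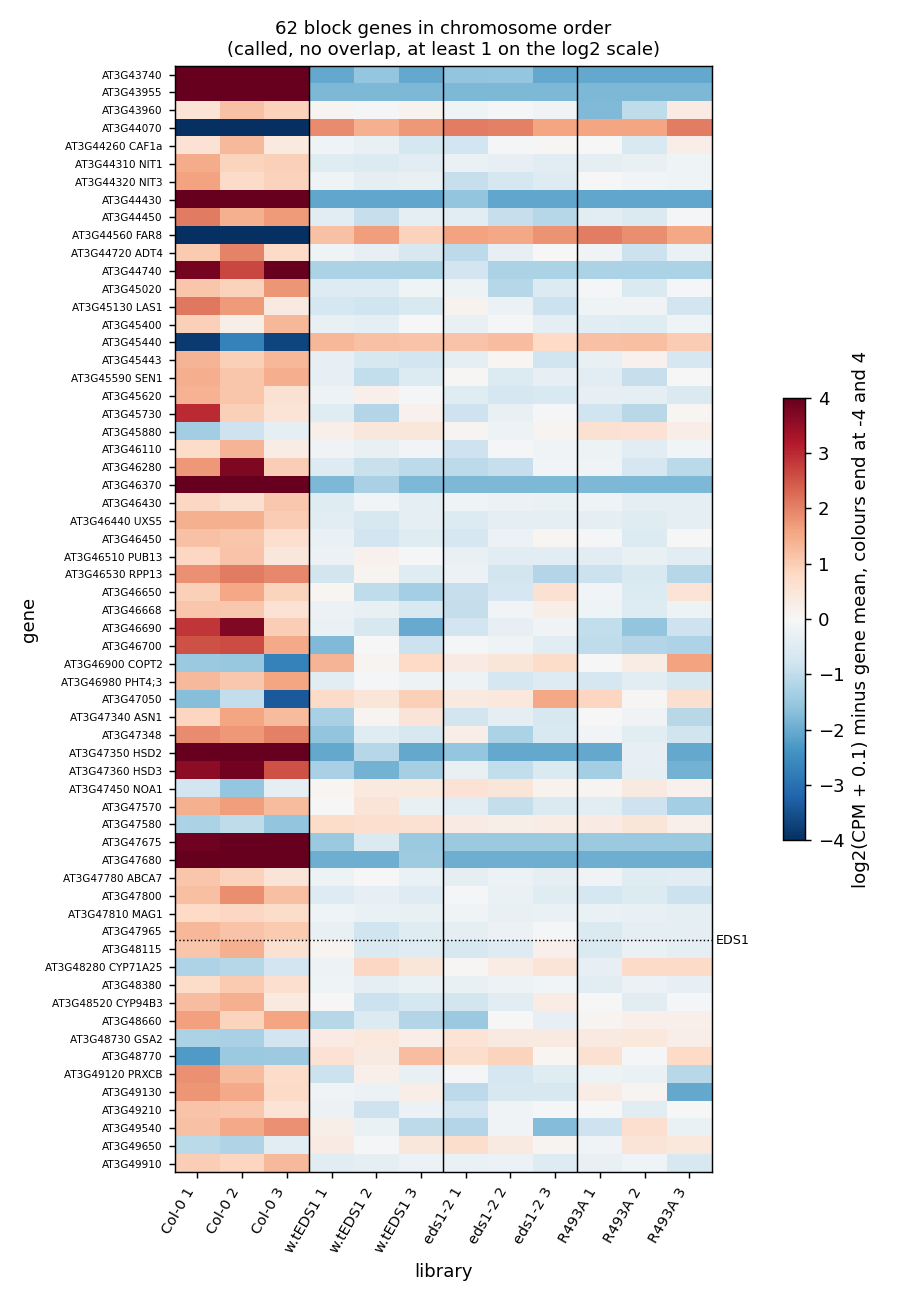
Large members in chromosome order (rows, 62 of the 63, since 1 is not reported here) in the 12 libraries (columns), coloured by log2(CPM + 0.1) minus the gene's mean over the libraries, with colours ending at −4 and 4. The 3 Col-0 columns stand apart from the other 9 in each row, since that was required of these genes, and the dotted line marks the place of EDS1.

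Each line taken on its own gave smaller counts, and the 3 comparisons share the same Col-0 libraries. In eds1-2 against Col-0, 66 members were called, 55 lower and 11 higher, where 2.04% of all genes were called, 1.44% lower and 0.602% higher. In w.tEDS1 against Col-0, 55 members were called, 45 lower and 10 higher, against 1.09% of all genes, 0.581% lower and 0.506% higher. In R493A against Col-0, 62 members were called, 53 lower and 9 higher, against 1.77% of all genes, 1.51% lower and 0.266% higher. The median absolute log2 change of the members was 0.388 in eds1-2, 0.416 in w.tEDS1 and 0.386 in R493A, beside 0.264, 0.267 and 0.239 over all genes tested.

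Few members, and few genes of the whole table, differed between the 3 lines, the one with wild-type EDS1 included. Between w.tEDS1 and eds1-2 no member was called by edgeR, with 0.0746% of all genes called, 8 members had an unadjusted p under 0.05, and DESeq2 called 1 and limma-voom 0. Between R493A and eds1-2 the edgeR count was again 0, with 0.0373% of all genes called, 8 members under an unadjusted 0.05, 1 call by DESeq2 and 0 by limma-voom. Between R493A and w.tEDS1 edgeR called 1 member, with 0.224% of all genes called and 19 members under an unadjusted 0.05, while DESeq2 called 3 and limma-voom 0. In the same order, 2.09%, 2.09% and 4.97% of members were under an unadjusted 0.05, beside 2.66%, 2.15% and 4.6% of all genes tested. DESeq2 called 0.262%, 0.262% and 0.785% of members, beside 0.448%, 0.165% and 0.826% of all genes. The median absolute log2 difference of the members was 0.127, 0.116 and 0.152 in these comparisons, close to the 0.103, 0.117 and 0.135 of all genes tested, and 0.394 against Col-0, where all genes had 0.246. A difference of at least 1 on the log2 scale was seen at 9, 7 and 15 members between the lines (2.36%, 1.83% and 3.93%) and at 83 against Col-0 (21.7%). The shares of all genes tested were smaller, at 1.72%, 1.16%, 2.51% and 6.48% in the same order.

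**Figure D2:**
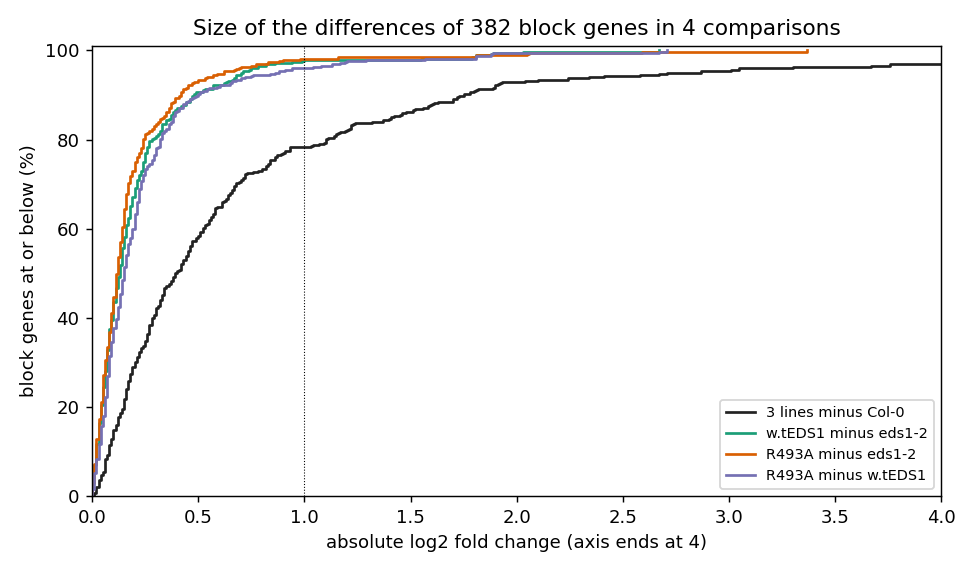
Cumulative share of the 382 members (vertical axis, percent) at or below a given absolute log2 fold change (horizontal axis, ending at 4) for the 3 lines against Col-0 and for the comparisons among the lines. The 3 curves among the lines rise together, with medians of 0.116 to 0.152, and the curve against Col-0 lies to their right, with a median of 0.394.

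The member called between R493A and w.tEDS1 was AT3G44205, an uncharacterized gene. Its level was 1.06, 0.458 and 1.03 CPM in R493A, 2.90, 3.05 and 3.04 in w.tEDS1, 2.90, 3.79 and 3.93 in eds1-2 and 4.66, 5.20 and 3.28 in Col-0. All 3 R493A libraries lay under all 9 others. R493A was lower than w.tEDS1 by −1.81 on the log2 scale (SE 0.31, edgeR adjusted p = 0.0405) and than eds1-2 by −2.05 (SE 0.30, adjusted p = 0.0515). The call against w.tEDS1 was lost when any 1 library of the 3 lines was left out. A second gene with an uneven pattern, named after its values were seen, was AT3G47480, which encodes an EF-hand calcium-binding protein. It was at 64.5, 109 and 47.3 CPM in Col-0 and 31.4, 71.6 and 41.0 in w.tEDS1, and at 12.4, 12.9 and 16.5 in eds1-2 and 14.1, 15.3 and 11.6 in R493A. The w.tEDS1 libraries overlapped Col-0, and both lay above the other 2 genotypes. The difference of w.tEDS1 from eds1-2 was 1.79 (SE 0.34, edgeR adjusted p = 0.159) and that of R493A from w.tEDS1 −1.81 (SE 0.34, adjusted p = 0.0706), both short of the threshold.

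The members that differed were spread along the block rather than gathered at EDS1. Below EDS1, 72 of 225 members were called lower (32.0%) and 12 higher (5.33%). Above it, 19 of 157 were called lower (12.1%) and 17 higher (10.8%). Among all genes tested, 6.85% were called lower and 3.55% higher. The median distance between the starts of neighbouring large members was 37.4 kb, the longest 173 kb, and up to 21 members that were not large lay between 2 that were. The share called was also taken in bins of 0.5 Mb, among genes at the level minimum that were not left out by name. It was 47.1% at 2.0 to 1.5 Mb below EDS1, 34.1% in the 0.5 Mb just below and 31.2% in the 0.5 Mb just above. It was 15.0% at 0.5 to 1.0 Mb above, the last bin that holds members.

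Neither limit of the block was a border in these data. Just beyond the upper limit, 20.2% of 99 genes were called at 1.0 to 1.5 Mb above EDS1, then 7.84%, 6.48% and 7.45% in the next 3 bins, under the 10.4% of all genes. Below the lower limit lay 11 genes at the level minimum at 3.0 to 2.5 Mb, of which 7 were called. The first member, the BTB and MATH domain gene BPM6 (AT3G43700), was at 8.61, 8.17 and 8.74 CPM in Col-0 and 5.29 to 7.62 in the other lines (log2 change −0.35, SE 0.12, not called). Its neighbour outside, AT3G43690, was at 11.0, 8.66 and 18.8 CPM in Col-0 and at most 0.0468 in the 9 others. The last member, the methylesterase gene MES10 (AT3G50440), was at 4.53, 4.52 and 7.85 CPM in Col-0 and 2.37 to 5.63 in the other lines (−0.67, SE 0.24, not called). Its neighbour outside, SNRK2.2 (AT3G50500), a kinase of abscisic acid signalling, was at 145, 143 and 142 CPM in Col-0 and 69.0 to 81.7 elsewhere, and was called lower (−0.91). Genes just inside and outside the level minimum were AT3G49540, over 1 CPM in 3 libraries, and AT3G45940, over it in 2.

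**Figure D3:**
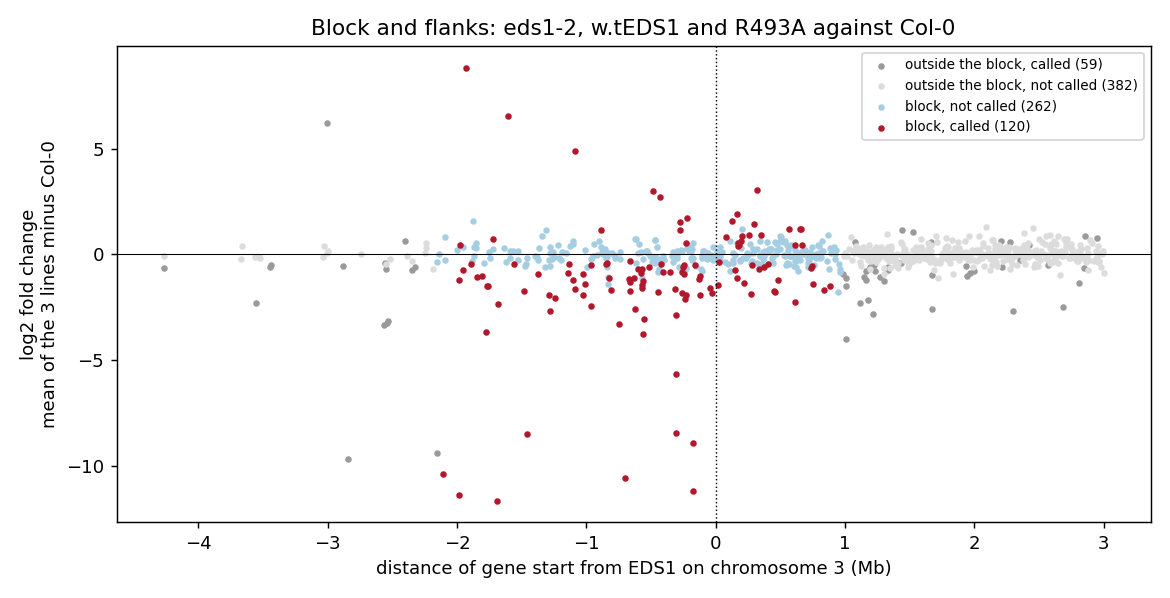
Log2 fold change of the mean of the 3 lines against Col-0 (vertical axis) by distance of the gene start from EDS1 in Mb (horizontal axis), for the 382 members, 120 of them called, and for genes at the level minimum on both sides. Large differences in both directions are scattered along the block and go on past both of its limits, and most points lie near 0.

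**Figure D4:**
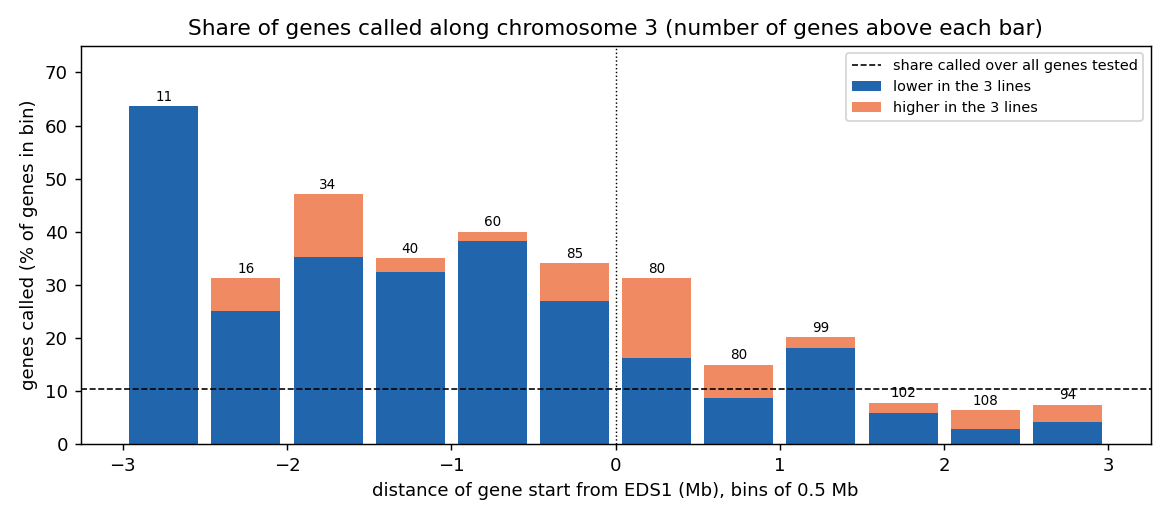
Share of genes called lower or higher in the 3 lines against Col-0 (vertical axis, percent) in bins of 0.5 Mb of distance from EDS1 (horizontal axis). The bins hold genes at the level minimum, without those left out by name, and the number of genes is above each bar. A dashed line marks the 10.4% of all genes tested, a wider set. The bins from −3.0 to 1.5 Mb lie above the line and the last 3 under it.

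Of the 6 members nearest to EDS1, 5 were not called. SUO (AT3G48050), needed for microRNA action, and its copy AT3G48060, 96.6% identical over the aligned transcript, had log2 changes of −0.24 (SE 0.15) and −0.16 (SE 0.13). Reads of these copies may have been set aside or split, so both values are uncertain. The RING-type gene AT3G48070 was at 45.0, 46.3 and 43.1 CPM in Col-0 and 36.7 to 46.4 in the others (−0.10, SE 0.08). On the other side, the cytokinin response regulator RR5 lay at −0.21 (SE 0.24) and EDD1, a glycyl-tRNA synthetase of organelles, at 0.12 (SE 0.10). All 5 had overlapping libraries. The sixth was called lower: AT3G48115, a noncoding RNA gene antisense to AT3G48120, was at 14.2, 17.8 and 10.1 CPM in Col-0 and 4.12 to 7.52 in the others (−1.42, SE 0.21), without overlap.

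At the extreme, 7 members had at most 3 reads in all 9 libraries of the other lines together. AT3G43740, a gene of the leucine-rich repeat family, was at 20.7, 21.3 and 21.4 CPM in Col-0 and at 0 to 0.0435 in the others. That is 1362 reads in the 3 Col-0 libraries against 3 in the 9 others, a ratio per gene count of 1330 (exact 95% interval 454 to 6450, counting error only). AT3G43955, uncharacterized, had 976 reads against 0, so it was at least 952-fold lower in the other lines, taking 3 reads over the 9 libraries as the limit. AT3G44430, also uncharacterized, had 1779 reads against 1, a ratio of 5210 (interval 933 to 206000), and it overlaps AT3G44435 on the other strand. The receptor kinase gene AT3G46370 had 870 reads against 1, a ratio of 2550 (456 to 101000). AT3G47680, annotated as a DNA-binding protein, had 1331 against 1, a ratio of 3890 (698 to 154000), and its neighbour AT3G47675 had 324 against 2, a ratio of 474 (130 to 3930). AT3G44740 had 202 against 1, a ratio of 591 (105 to 23500). HSD2 (AT3G47350), of the hydroxysteroid dehydrogenase family, came close to these, at 11.8, 16.2 and 13.7 CPM in Col-0 and 0 to 0.229 in the others. In each of these genes the 3 Col-0 libraries lay far above all 9 others. All of them met the level minimum through Col-0 alone, so a separation was required by the choice of members, though not its size.

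The opposite case was 1 member. AT3G44070, annotated as a glycosyl hydrolase of family 35, had 0, 0 and 0.0993 CPM in Col-0 and 13.2 to 20.4 CPM in the other 9 libraries. Its 3355 reads in the lines against 2 in Col-0 gave a ratio of 573 (interval 159 to 4740), and its locus overlaps AT3G06715 on the other strand. FAR8 (AT3G44560), of the fatty acyl-CoA reductases that make fatty alcohols, was at 0.336, 0.535 and 0.646 CPM in Col-0. In the other lines it lay between 29.6 and 65.4 CPM, a log2 change of 6.55 (SE 0.28). The lectin receptor kinase gene AT3G45440 was at 0.168, 0.486 and 0.199 CPM in Col-0 and 6.61 to 9.60 in the lines, a change of 4.87 (SE 0.28). In all 3 genes the 9 libraries of the lines lay far above Col-0, where a count of 0 over its libraries would still allow 0.0448 CPM, the level of 3 reads. All 3 genes met the level minimum through the other lines alone, so the choice of members favoured such a gap.

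**Figure D5:**
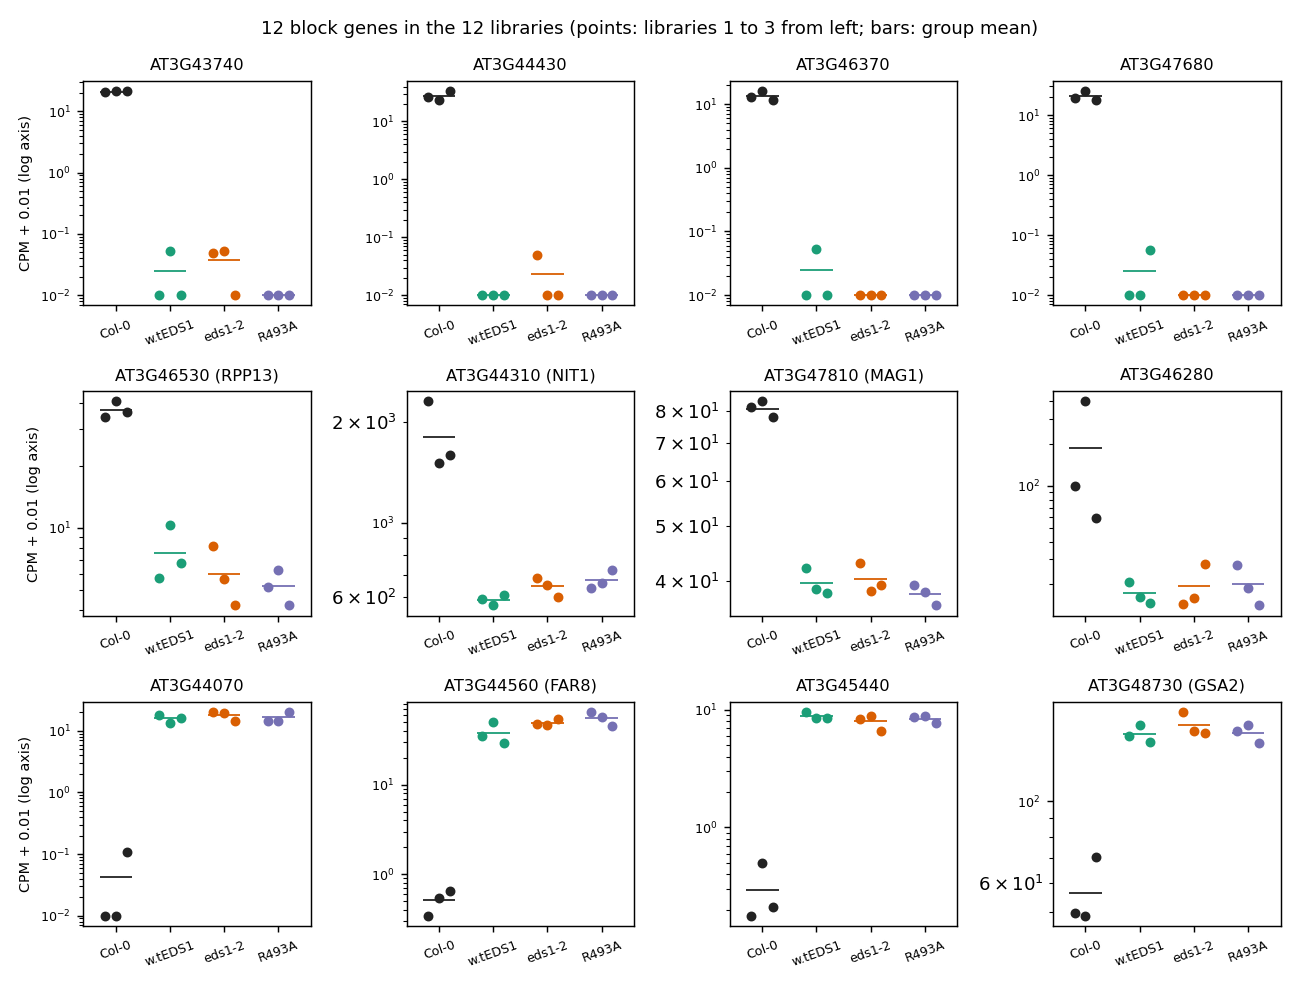
CPM + 0.01 on a log axis (vertical) of 12 members in each library, by genotype (horizontal), with a bar at the group mean. The first 8 genes lie higher in all 3 Col-0 libraries than in the other 9 libraries and the last 4 lower, and points at 0.01 are libraries without a read.

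Genes of receptor families were among the members that differed. Of 9 leucine-rich repeat and malectin receptor genes, 4 were called lower and 2 higher, with a median log2 change of −0.28, beside 0.00 for all genes tested and −0.14 for all members. For this list and those below, the share to set beside the count called is 31.4% of all members and 10.4% of all genes tested. No list was tested as a set. AT3G46280, a kinase-like gene, was at 100, 399 and 59.4 CPM in Col-0 and 14.1 to 27.8 in the lines (−3.30, SE 0.42), with Col-0 replicate 2 far above the other Col-0 libraries. Neighbouring paralogs went opposite ways. AT3G47580 was at 5.75, 6.81 and 4.57 CPM in Col-0 and 16.0 to 23.2 in the lines (1.72, SE 0.13), and AT3G47570, named after its values were seen, at 14.2, 17.2 and 12.8 against 2.01 to 7.53 (−1.93, SE 0.20). AT3G47580 overlaps AT3G47590 and AT3G07785 on the other strand. BAM2, a receptor of CLE peptides, was called higher (1.19, SE 0.34) with overlap, and HERK1, a receptor kinase of cell growth, lay at −0.22 (SE 0.12, not called). Of 3 lectin receptor kinases, AT3G45440 was called higher, and the other 2 lay at 0.50 and 0.66 without a call.

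RPP13 (AT3G46530) encodes an NLR receptor for downy mildew that is known to vary in sequence among accessions. It was at 34.4, 40.8 and 36.1 CPM in Col-0, 8.12, 5.68 and 4.21 in eds1-2, 5.69, 10.3 and 6.74 in w.tEDS1 and 5.18, 6.27 and 4.22 in R493A. The 3 lines overlapped each other and all lay far under Col-0 (log2 change −2.58, SE 0.19). The gene overlaps AT3G46520 on the other strand, and its closest relative, AT3G46730, is 77.4% identical. Both other listed genes of this family were under the level minimum.

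All 3 nitrilases, enzymes that can turn indole-3-acetonitrile into auxin, were called lower, with a median of −1.51, where 23.8% of all members were called lower. NIT1 was at 2310, 1510 and 1600 CPM in Col-0, 590, 566 and 610 in w.tEDS1, 683, 653 and 599 in eds1-2 and 639, 661 and 723 in R493A (−1.51, SE 0.12). NIT3 was at 37.3, 20.7 and 23.2 CPM in Col-0 and 6.44 to 12.2 in the lines (−1.51, SE 0.15), and neither gene overlapped. NIT2 (−3.67, SE 0.86) did overlap: Col-0 replicate 1 was at 14.3 CPM, the other Col-0 libraries at 1.95 and 1.09 and the lines at 0.043 to 4.94. NIT1 and NIT2 are 88.9% identical, so their counts are uncertain.

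Of 5 UGT glycosyltransferases, which attach sugars to small molecules, 4 were called lower, with a median of −1.59, beside 23.8% of all members. AT3G46700 was at 16.2, 16.8 and 7.80 CPM in Col-0 and 0.724 to 2.74 in the lines (−3.05, SE 0.29), and AT3G46690 at 18.1, 32.6 and 4.82 against 0.515 to 2.16 (−3.76, SE 0.43). UGT76E12 (−1.59, SE 0.43) was called with overlap and UGT76E11 (−0.23, SE 0.24) was not called. These genes form a tandem cluster of close copies. Of 5 cytochrome P450 genes, CYP94B3, which hydroxylates the jasmonate hormone JA-Ile, was called lower, at 1150, 1330 and 640 CPM in Col-0 and 270 to 604 in the lines (−1.37, SE 0.25). CYP71A25 was called higher, at 0.546, 0.584 and 0.795 CPM in Col-0 and 1.11 to 2.57 in the lines (1.56, SE 0.34). It met the level minimum through the other lines alone. The carboxyl methyltransferase gene FAMT was called lower (−0.93, SE 0.20), at 1430 to 2180 CPM in Col-0 and 616 to 1150 in the lines.

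Among 3 ABCA transporters, ABCA7 was at 75.6, 67.3 and 50.5 CPM in Col-0 and 25.2 to 34.8 in the lines (−1.15, SE 0.12), ABCA2 was called lower by less (−0.52, SE 0.11), and ABCA4 was not called. ABCA2 overlaps AT3G47720 and AT3G07805 on the other strand. NRT2.6, of a family of nitrate transporters, was at 563, 1270 and 74.5 CPM in the Col-0 libraries and at 21.2 to 277 in the lines (−2.67, SE 0.69). Its change rests on Col-0 replicates 1 and 2, and with sequencing lane as a covariate it was 0.29. GTR1, a glucosinolate transporter, lay at 0.06 (SE 0.18). Of 2 fatty acyl-CoA reductases, FAR8 was higher as given above, and FAR5, which makes fatty alcohols of suberin, lay at −0.36 (SE 0.25) without a call.

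Of 14 stress and defence regulators, 6 were called lower and the other 8 were not called, with a median log2 change of −0.83. Among all members, 23.8% were called lower. PUB13, a ubiquitin ligase of the flagellin receptor, was at 92.5, 114 and 71.0 CPM in Col-0 and 37.4 to 57.9 in the lines (−1.10, SE 0.13). ADT4, an arogenate dehydratase of phenylalanine synthesis, was at 157, 297 and 128 CPM in Col-0 and 36.1 to 75.7 in the lines (−1.75, SE 0.25). The deadenylase gene CAF1a (−1.03, SE 0.23), the RING-type gene RDUF1 (−0.89, SE 0.23), MLO3 (−0.87, SE 0.20) and BT2 (−0.71, SE 0.18) were the other 4. Col-0 replicate 2 was the highest library for PUB13, ADT4, CAF1a, RDUF1 and BT2. The zinc finger gene ZAT7 lay at −1.09 (SE 0.35) and the transcription factor gene NAC062 at −0.56 (SE 0.20), both without a call.

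Of 15 chloroplast and pigment genes, 4 were called higher and 2 lower, with a median of 0.18. Among all members, 7.59% were called higher and 23.8% lower. GSA2, which makes the tetrapyrrole precursor of chlorophyll and haem, was at 49.6, 48.9 and 70.6 CPM in Col-0, 175, 155 and 153 in eds1-2, 150, 161 and 145 in w.tEDS1 and 155, 161 and 144 in R493A (1.46, SE 0.13). NOA1, a plastid GTPase, was at 13.2, 7.59 and 17.4 CPM in Col-0 and 23.9 to 33.7 in the lines (1.14, SE 0.21). PDE312, a subunit associated with plastid RNA polymerase, was at 12.6, 9.87 and 12.3 CPM in Col-0 and 17.5 to 25.1 in the lines (0.86, SE 0.13). None of the 3 overlapped, while FTSH7, a thylakoid protease, was called lower with overlap (−0.45, SE 0.12). The photosystem gene LHCA4 (0.15, SE 0.17) and the import channel gene TOC75-III (0.15, SE 0.11) were not called. NOA1 overlaps AT3G47440 on the other strand.

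The 14 listed genes of RNA silencing and chromatin gave 1 call, with a median of 0.13. That is near the 10.4% of all genes tested and under the 31.4% of all members. The call was REF6, a histone H3 demethylase, at 17.1, 13.3 and 15.1 CPM in Col-0 and 16.4 to 24.3 in the lines (0.47, SE 0.13, overlapping). The silencing genes DCL3 and RDR6 lay at 0.23 (SE 0.30) and 0.42 (SE 0.15) without a call. Of 8 ribosomal protein genes, AT3G49910 was at 92.3, 84.9 and 114 CPM in Col-0 and 29.5 to 40.9 in the lines (−1.41, SE 0.12). AT3G44010 was at 62.1, 57.4 and 67.4 against 33.9 to 44.1 (−0.71, SE 0.10), and the other 6 were not called. Of 8 genes of general cell machinery, MAG1 (AT3G47810), a retromer subunit of vesicle sorting, was at 81.1, 83.0 and 77.8 CPM in Col-0 and 36.2 to 43.0 in the lines (−1.04, SE 0.07). Its locus overlaps AT3G47800 and AT3G07825 on the other strand. The actin-depolymerising factor gene ADF2 was at 122, 126 and 126 CPM against 84.1 to 100 (−0.46, SE 0.08), and ADF1 was not called (−0.15, SE 0.11). In MAG1 and ADF2 the spread within each genotype was small beside the gap.

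Further called members belonged to no list. The phospholipase gene NPC6 was called higher by 0.93 (SE 0.21), the nucleotide-binding gene AT3G49650 by 1.20 (SE 0.23) and the oxygenase gene AT3G45880 by 1.17 (SE 0.22), each without overlap. AT3G45880 overlaps AT3G45870 and AT3G45890 on the other strand. The uncharacterized gene AT3G44450 was at 38.4, 24.5 and 29.8 CPM in Col-0 and 4.07 to 8.80 in the lines (−2.34, SE 0.18). AT3G45730, also uncharacterized, was at 21.3, 5.16 and 3.82 CPM against 1.09 to 2.90 (−2.41, SE 0.45), with replicate 1 the highest of Col-0. Of 6 glycosyl hydrolases and expansins, AT3G44070 and AT3G47050 (2.71, SE 0.52) were called higher, and the expansin-like gene EXLA1 was not (0.25, SE 0.35). AT3G47050 had a mean under 2 CPM over the 12 libraries, so its change rests on low counts.

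The remaining large members, named after their values were seen, included enzymes and transporters of central metabolism. PRXCB, a secreted peroxidase known to release reactive oxygen in defence, was at 1500, 1020 and 704 CPM in Col-0 and 196 to 487 in the lines (−1.72, SE 0.25), and it is 89.2% identical to its neighbour AT3G49110. UXS5, which makes UDP-xylose for cell wall sugars, was at 43.4, 43.2 and 33.0 CPM in Col-0 and 10.3 to 12.7 in the lines (−1.73, SE 0.10). The asparagine synthetase gene ASN1 was at 8.19, 13.4 and 10.7 CPM against 1.74 to 6.41 (−1.61, SE 0.31), and it overlaps AT3G47341 on the other strand. In these 3 genes the lowest Col-0 library lay above the highest of the lines, by a narrow gap in ASN1. LAS1, a lanosterol synthase, lay at −2.04 (SE 0.30), and HSD3, 87.1% identical to its neighbour HSD2, at −5.65 (SE 0.44), with 2.04 to 5.25 CPM in Col-0 and 0 to 0.196 in the lines. The phosphate transporter gene PHT4;3 was at 18.9, 16.1 and 23.0 CPM in Col-0 and 4.65 to 7.18 in the lines (−1.78, SE 0.13). The copper transporter gene COPT2 was one of the higher members, at 0.252, 0.243 and 0.0497 CPM in Col-0 and 0.885 to 2.93 in the lines (3.01, SE 0.56). HSD3 met the level minimum through Col-0 alone and COPT2 through the other lines alone. A group of 3 adjacent identifiers, AT3G46430, annotated as an ATP synthase gene, UXS5 and the SEC14-like gene AT3G46450, was lower in a row, by −1.14, −1.73 and −1.32.

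Members with a close copy in the genome, near or far, at 80% identity or more over at least 50% of the transcript, made up 6 of the 13 large higher members (46.2%). They made up 15 of 50 large lower members (30.0%) and 62 of the other 319 (19.4%). The copy lay within 10 loci for 3 of the 6, 11 of the 15 and 26 of the 62. Overlap with a gene on the other strand was found at 38.5% of the large higher members, 24.0% of the large lower members and 27.3% of the others. The counting states no strand, so reads of such pairs cannot be told apart. The median transcript length was 1920, 1644 and 1789 bases in the same order, and the median level over the 12 libraries was 6.51, 6.40 and 16.4 CPM.

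The spread of Col-0 set limits on part of the calls. Of the 120 called members, 58 had Col-0 libraries within 1.5-fold of each other and 62 did not. The Col-0 libraries lay within 1.5-fold at 47.6% of all members and 48.8% of all genes tested, so the called members were like other genes in this. Of the 58, 51 also had no overlap, and 3.63% of all genes tested were called, without overlap and within 1.5-fold. Among the 47 lower members beyond 1.5-fold, the highest Col-0 library was replicate 2 at 28, replicate 1 at 13 and replicate 3 at 6. With sequencing run and lane as a covariate, 21 members were called, of only 32 genes called in the whole table (0.17%), and in lane 7 alone 15 of 24 (0.126%). Both fits rest on Col-0 replicate 3, the only Col-0 library that shared a lane with other genotypes. The direction was kept by 118 of the 120 members in both. This is no independent check, since replicate 3 was among the libraries behind the calls. Where Col-0 did not overlap the other 9 libraries, the direction in lane 7 was fixed beforehand. Without Col-0 replicate 1, edgeR called 63 members and 2.06% of all genes, without replicate 2 it called 72 and 2.07%, and without replicate 3 it called 163 and 24.8%.

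Of 41 named members called, 15 were still called with lane as a covariate and 12 in lane 7 alone, 27 without Col-0 replicate 1 and 30 without replicate 2. The change itself moved by over 1.5-fold in 13 of the 41 with lane as a covariate. It became −1.56 for AT3G46280, −1.76 for AT3G46690, −2.18 for AT3G46700, −1.07 for AT3G45730, −1.03 for ADT4, −0.68 for CYP94B3, 0.60 for AT3G49650, 0.29 for NRT2.6 and 5.45 for AT3G47050, none of them called there. AT3G44070 (7.32), AT3G44430 (−12.51) and HSD2 (−10.34) also moved by over 1.5-fold and were still called. RPP13 (−2.57), AT3G44450 (−2.36) and FAR8 (6.23) stayed near their values and were called. Without Col-0 replicate 1 the calls of AT3G45730 (−1.23), NOA1 (1.18) and AT3G47050 were lost. Those of AT3G44205, FAMT, NRT2.6, CYP94B3, CYP71A25, ABCA2, NPC6, AT3G49650 and AT3G45880 were lost without replicate 1 and again without replicate 2, and that of REF6 without any 1 of the 3 Col-0 libraries, and it held in 3 of 21 alternatives. The cause of the lost calls was not tested.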

How the data were processed

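Poly(A) RNA of 12 leaf samples was measured, with groups taken from the labels. Raw counts of reads per gene were deposited, made by the authors on build TAIR10. TopHat2, HTSeq and limma were named in the submitters' processing notes, with no version or setting. Its 5 summary rows, 9.69% to 22.9% of a library's total, were left out. Counts were fitted in R 4.3.3 with edgeR 4.0.16: filterByExpr (18770 of 32678 genes), TMM scaling, a quasi-likelihood model with genotype as its only term on all 12 libraries, a prior count of 0.125, and Benjamini-Hochberg adjustment over all genes tested, with calls at an adjusted p under 0.05. The contrast with Col-0 weighs the 3 lines equally, and SE follows from the fold change and its F statistic. Levels are TMM-scaled CPM; membership used unscaled CPM. Library depth was 19273912 to 24572145 gene counts, and intervals of read ratios cover counting error only. Replicates are pools of plants per the labels. The model was run on simulated counts with the same spread in every genotype, so that run does not cover the larger spread of Col-0. There, among genes that were not of low level, 76% of 100 true log2 changes of 1 and 97% of 100 of 2 were called, with 11 false calls.

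The members and lists were chosen with earlier results of these data known. Named genes were the 12 largest decreases and 10 largest increases among called members without overlap at a mean of at least 2 CPM, up to 2 called members of each list by adjusted p, members called between the lines, the 3 nearest to EDS1 on each side, and the first and last member with its neighbour outside; 1 of them is not reported here. Other list members, AT3G47480, the remaining genes with at most 3 reads and the remaining large members were named after their values were seen. Gene positions, overlaps and promoters come from RefSeq TAIR10.1, whose nuclear coordinates are those of TAIR10, and close copies from a BLAST of its transcripts. Alternatives were DESeq2 1.42.0, limma-voom (limma 3.58.1), DESeq2 size factors, no filter, a minimum change, a replicate block, sequencing run or lane, and leaving out each library.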

Additional observations from a re-analysis of the deposited data

Results flagged for a closer look

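AT3G44205 was picked out because its level differed between R493A and w.tEDS1 by a test of that difference itself (log2 fold change −1.81, SE 0.31, edgeR adjusted p = 0.0405). It was lower in all 3 R493A libraries than in all 3 w.tEDS1 libraries, at 0.458 to 1.06 CPM against 2.90 to 3.05 CPM. The call was fragile. No member was called in this comparison with limma-voom or with the replicate block. The same held when Col-0 replicate 1 or any 1 library of the 3 lines was left out.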

How the results depend on the processing

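Shares in brackets are of all genes tested. The count of 120 members called against Col-0 (10.4%) was 76 where a log2 change of at least 1 was also required, 21 with sequencing lane as a covariate (0.17%) and 15 in lane 7 of the larger sequencing run alone (0.126%). With a library left out it ranged from 63 (without Col-0 replicate 1, 2.06%) to 163 (without Col-0 replicate 3, 24.8%). For eds1-2 the 66 calls (2.04%) became 115 with DESeq2 (9.78%), 29 in that run alone (0.296%), 10 with the lane covariate (0.0693%) and 5 in lane 7 (0.0524%), and 30 (0.301%) to 129 (17.6%) with a library left out. For w.tEDS1 the 55 (1.09%) became 113 with DESeq2 (9.28%), 16 with the lane covariate (0.139%) and 12 in lane 7 (0.0996%), and 25 (0.2%) to 115 (14.2%). For R493A the 62 (1.77%) became 109 (7.76%), 31 (0.375%), 10 (0.101%) and 5 (0.0787%) in the same order as for eds1-2, and 35 (0.437%) to 114 (12.5%). Between w.tEDS1 and eds1-2 the count of 0 was 1 with DESeq2 (0.448%) and 0 to 1 with a library left out. Between R493A and eds1-2 the 0 was 1 without the filter (0.0536%), with DESeq2 (0.165%) and with run as a covariate (0.0266%), and 0 to 1. Between R493A and w.tEDS1 the 1 was 2 without the filter (0.214%) and with run as a covariate (0.181%), and 3 with DESeq2 (0.826%). It was 0 with limma-voom, in that run alone, with the lane covariate and in lane 7, and 0 to 2 with a library left out. That 1 call was lost without Col-0 replicate 1 and without any 1 library of the 3 lines. The causes of these changes were not tested.

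The replicate numbers did not pair the samples: 4 of 18 same-numbered pairs had a correlation above 0.1 (range −0.509 to 0.381), and 1 of 12 libraries correlated best with its own number. The replicate block gave 82 calls for the 3 lines against Col-0 (3.49%), 42 for eds1-2 (0.703%), 38 for w.tEDS1 (0.464%), 41 for R493A (0.847%) and 0 between R493A and w.tEDS1.

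Of the 48 named members, 25 kept their direction but lost the call with the lane covariate and 28 in lane 7, and 4 changed sign. With the lane covariate and in lane 7 respectively, NRT2.6 was at 0.29 and 0.26, SUO at 0.29 and 0.28, AT3G48060 at 0.30 and 0.30, and RR5 at 0.25 and 0.24. RR5 ranged from −0.39 to 0.23 with a library left out. Of these, NRT2.6 alone had been called. NPC6 was at 0.38 and 0.37 and ABCA2 at −0.22 and −0.23 in the same fits.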
